A study of Drosophila melanogaster with 6 samples.

Results

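Odorant receptor (Or), gustatory receptor (Gr) and ionotropic receptor (Ir) genes encode the receptors with which a fly smells and tastes. Every gene whose FlyBase symbol starts with Or, Gr or Ir followed by a digit was taken, together with Orco, which gave 187 of the 17509 genes listed for these head libraries. They were 61 Or genes including Orco, 60 Gr genes and 66 Ir genes. Transcripts were counted by RNA sequencing of total RNA from whole heads of 4-day-old females of the wild-type fly strain Canton S (Drosophila melanogaster). In the vitamin A deprived group (3 libraries) the flies grew up on minimal food without beta-carotene, and in the vitamin A replete group (3 libraries) the same food held beta-carotene. Incubators were set to 25 °C and a relative humidity of 50% for both groups. The labels name no transgene or mutation. Whether each library came from its own set of flies is not stated, and p-values cover only the spread among these 6 libraries, part of which may be technical. Library codes in the labels start with M0 in the deprived group and M1 in the replete group, and if they mark a batch, it cannot be told apart from diet.

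Olfactory neurons sit in sensory hairs of the antenna and the maxillary palp. Each tuning Or protein works in a complex with the co-receptor Orco, without which it does not reach the sensory cilium, and most olfactory neurons carry only a few kinds of tuning receptor. Gr proteins respond to sugars, bitter compounds, carbon dioxide, warmth or contact pheromones, mostly in taste hairs of the proboscis, legs and wings. Ir proteins derive from ionotropic glutamate receptors. The broadly expressed co-receptors Ir8a, Ir25a, Ir76b and Ir93a join with selective subunits to detect acids, amines, salt, temperature or humidity. A head carries the antennae, the palps, the proboscis and the pharynx, but not the legs, wings or ovipositor.

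Sequencing depth was 21344395 to 24165187 counts in the deprived libraries and 15668307 to 17935321 counts in the replete libraries, with no overlap, so depth went with diet. Levels below are in CPM, the count relative to the scaled size of its library. In these libraries 3 counts were worth 0.124 to 0.191 CPM, a floor that covers counting error only. Low counts were even more often than odd. Among counts from 1 to 20, between 63.7% and 69.8% of the values in a library were even over all genes, and 336 of 440 such values (76.4%) were even among the receptor genes. Counts this low were thus not spread as independent molecules would be. The 8 markers of olfactory tissue were present in all 6 libraries, with a summed level of 271, 389 and 277 CPM in deprived heads and 271, 253 and 361 CPM in replete heads. Deprived replicate 2 and replete replicate 3 were thus the highest of their groups in this tissue. The 6 markers of ovary tissue summed to 16.1, 41.9 and 12.2 CPM in deprived heads and 79.2, 47.8 and 0.492 CPM in replete heads, with the eggshell gene Cp36 seen in replete replicate 2 alone (7.34 CPM). Replete replicate 2 also had the lowest summed level of each receptor family. The part of such carried-over tissue in the receptor levels was not tested.

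The first question was which of these receptors could be seen in a female head at all. With detection set at 10 or more counts in 3 or more libraries, 55 of the 187 receptor genes (29.4%) were detected, against 10973 of all 17509 genes (62.7%). The odorant receptors reached 24 of 61 (39.3%), the ionotropic receptors 21 of 66 (31.8%) and the gustatory receptors 10 of 60 (16.7%). At the other end, 39 receptor genes had no count in any library, among them 9 Or, 14 Gr and 16 Ir genes. The 28 genes that reached 10 counts in all 6 libraries depend least on which libraries are counted. They include genes that lie inside another gene, such as Or45a and Gr39a, and genes that do not, such as Orco and Ir25a. For the former, reads of the host gene cannot be told apart, as described below.

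Detected receptor genes were low even so. Per kilobase of exon, their median level was 0.670 CPM, against 7.88 CPM for all detected genes with a known length. The medians of the families lay close together, at 0.665 CPM per kilobase for Or, 0.659 for Gr and 0.748 for Ir. Or45a had the highest level of any receptor gene at 7.48 CPM per kilobase, which placed it at percentile 48.7 of all detected genes. Orco, with 5.52 CPM per kilobase, was at percentile 40.8. At the low end stood Gr28b, a gene with warmth-sensing isoforms, at percentile 0.147.

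**Figure D1:**
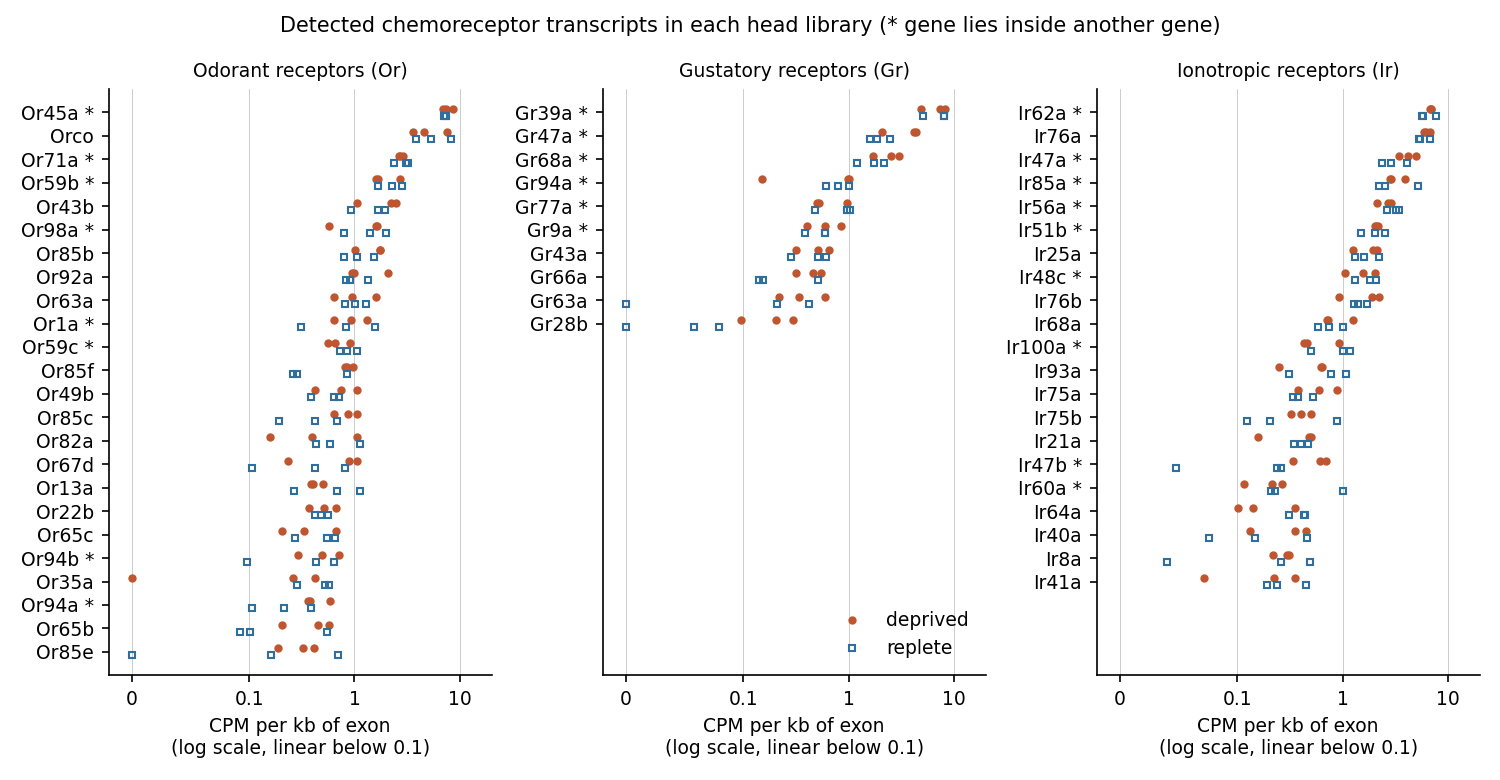
Level of each detected receptor gene in every library, in CPM per kilobase of exon on a log axis that is linear below 0.1, for 24 Or, 10 Gr and 21 Ir genes. Filled circles are the 3 deprived libraries and open squares the 3 replete libraries; an asterisk marks a gene that lies inside another gene. Deprived and replete points interleave for nearly every gene, and only Gr28b and Ir47b have all deprived points above all replete points.

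Counted library by library, 24, 25 and 22 Or genes reached 10 counts in the deprived libraries, against 17, 19 and 22 in the replete libraries. For Gr genes the numbers were 10, 13 and 13 in deprived heads against 10, 6 and 11 in replete heads. For Ir genes they were 21, 19 and 21 in deprived heads against 18, 16 and 20 in replete heads. The deprived libraries tended to be higher in all 3 families, and they were also the deeper ones. After every library was thinned at random to the smallest total, the Or numbers were 17, 19 and 17 in deprived heads and 17, 19 and 21 in replete heads. Thinned Gr numbers were 8, 9 and 8 in deprived and 10, 6 and 9 in replete heads, and thinned Ir numbers were 17, 18 and 19 in deprived and 18, 15 and 20 in replete heads. The groups overlapped in each family both before and after thinning.

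**Figure D2:**
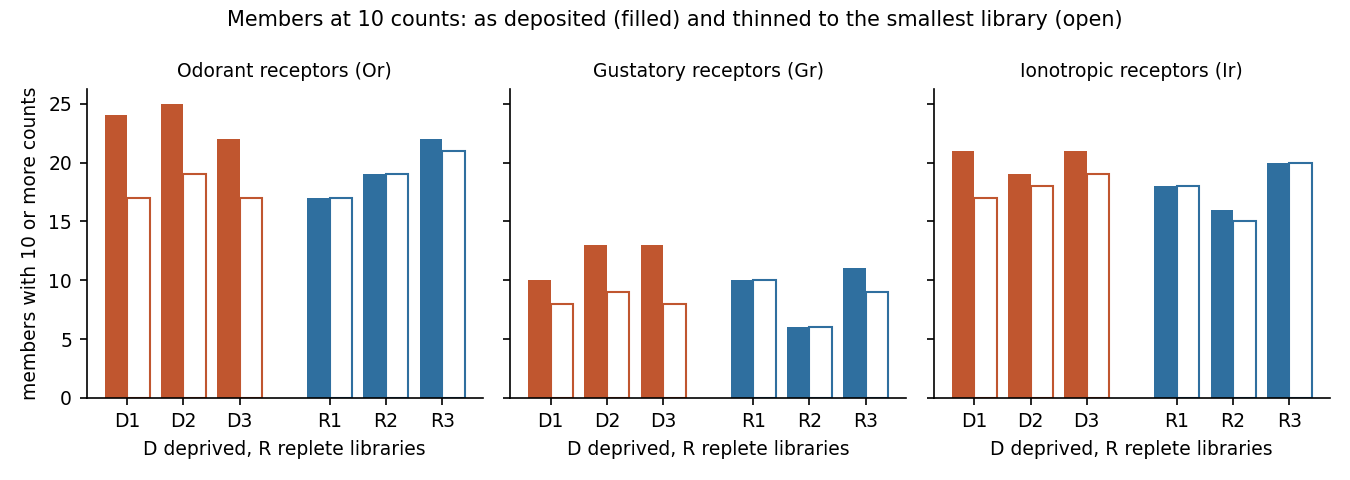
Number of Or, Gr and Ir genes with 10 or more counts in each deprived (D1 to D3) and replete (R1 to R3) library. Filled bars use the counts as deposited and open bars the counts thinned to the smallest library; the lead of the deprived libraries in the filled bars, such as 24, 25 and 22 Or genes against 17, 19 and 22, is not seen in the open bars.

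At the edge of detection, 7 genes had a third-highest count of exactly 10: Gr9a, Gr28b, Gr63a, Ir47b, Ir60a, Or85e and Or94a. Gr28b, for example, had 20, 28 and 10 counts in deprived and 0, 6 and 4 in replete heads, and Gr63a had 20, 7 and 12 in deprived and 5, 0 and 10 in replete heads. Just outside stood Gr32a, a bitter and pheromone receptor, with a third-highest count of 9, and Gr21a, Gr64f, Ir51a, Or7a, Or9a and Or22a with 8. Gr32a had 4, 9 and 4 counts in deprived and 12, 8 and 17 in replete heads, and Gr21a had 8, 16 and 10 in deprived and 8, 6 and 4 in replete heads. Gr21a and Gr63a together form the carbon dioxide receptor of antennal neurons, and they fell on opposite sides of the threshold.

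Which receptor genes were seen went with where the gene lies. Many receptor genes sit in an intron of a larger gene, and the annotation used (assembly BDGP6.54) placed 25 of them wholly within the span of another gene while sharing less than 50% of their exon bases with any. Of those 25, 23 were detected (92.0%), with a median of 1.65 CPM per kilobase among the detected. Of the 146 that lie inside no other gene and share less than 50% of their exon bases, 31 were detected (21.2%), with a median of 0.562 CPM per kilobase. The 2 nested genes that were not detected were Or85a, inside Poxm, and the pseudogene Or98P, inside CG34353. Among the 15 receptor genes with the highest level per kilobase, 11 were nested. In each library the nested genes held between 60.5% and 65.4% of all receptor CPM.

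Or45a, a receptor of larval olfactory neurons, lies on chromosome arm 2R from 9345349 to 9348863 within CG13739 and CG13954. It was read at 30.0, 25.6 and 24.1 CPM in deprived heads and 24.6, 25.3 and 25.5 CPM in replete heads. The groups overlapped and 5 of the 6 libraries were within a narrow band. This single gene made up 33.9% to 44.1% of the summed CPM of the Or family. Per kilobase, Or45a stood at 7.48 CPM, between CG13739 at 10.9 CPM and CG13954 at 2.90 CPM.

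The nested Gr39a encodes alternative receptors used in bitter taste and lies inside Mondo, a sugar-responsive transcription factor gene on the other strand. Its levels were 18.7, 28.0 and 31.4 CPM in deprived heads and 30.9, 19.4 and 30.7 CPM in replete heads. Each group had 1 library well below its others, and the groups overlapped. Gr39a held 50.4% to 68.9% of the summed CPM of the Gr family. Mondo averaged 35.2 CPM per kilobase, against 6.96 for Gr39a.

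The same held among the ionotropic receptors. Ir62a lies inside Iml1, a regulator of nutrient signalling, on the same strand, and had 12.6, 12.4 and 12.6 CPM in deprived heads and 10.4, 10.6 and 13.9 CPM in replete heads. SLO2, a potassium channel gene read at 16.8 CPM per kilobase, has 3 receptor genes inside it: Ir47a and the pseudogene Ir47b on its own strand, and Gr47a on the other. Ir85a lies inside Pif1A and Ir56a inside 5-HT1A, a serotonin receptor gene. Whether reads were counted by strand is not given in the sources used here, so reads of a nested receptor and intronic reads of its host cannot be told apart, and the part of host transcript in these levels was not tested.

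The 16 receptor genes that share 50% or more of their exon bases with another gene went the other way. A single member, the cooling receptor gene Ir21a, was detected, and 12 had no count in any library. Or10a and Gr10a, which share their exons fully, were both at 0, as were the sugar receptor genes Gr64b, Gr64c, Gr64d and Gr64e and the odorant receptor genes Or45b, Or46a, Or83a and Or88a. A 0 there does not tell whether the gene is silent, because reads that fall on more than 1 gene may not have been assigned to any.

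**Figure D3:**
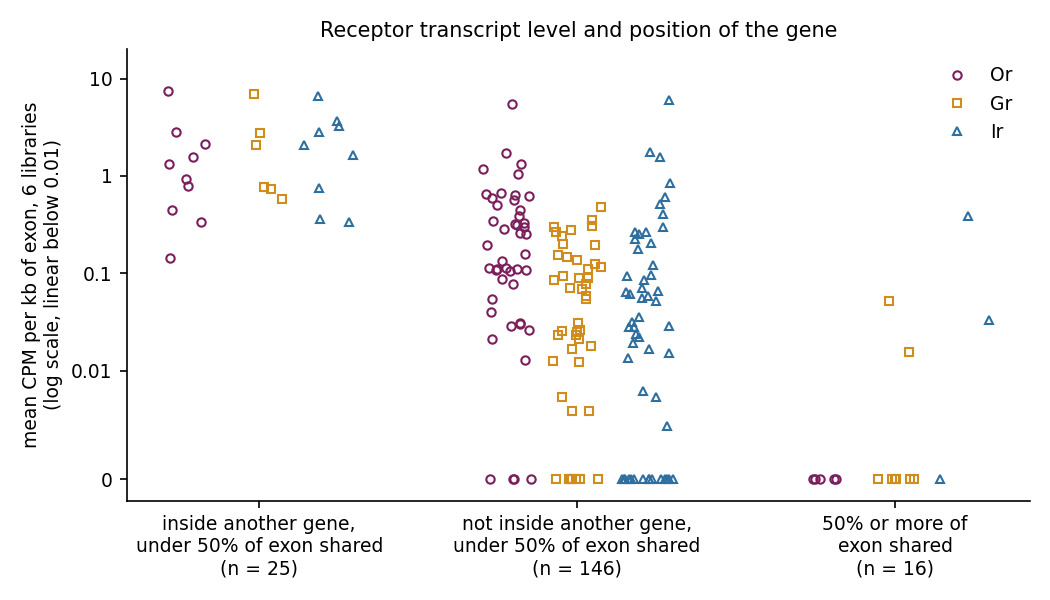
Mean level over 6 libraries of all 187 receptor genes, in CPM per kilobase of exon on a log axis that is linear below 0.01, split by the position of the gene. Circles are Or, squares Gr and triangles Ir genes, spread sideways only to keep them apart. The 25 nested genes lie above most of the 146 genes that are not nested, and 12 of the 16 genes with shared exons lie at 0.

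All 5 co-receptors were detected, and none was called between the diets at an adjusted p under 0.05 in edgeR's quasi-likelihood test, which called 0.33% of all tested genes. Orco, on chromosome arm 3R from 5407183 to 5412406 in BDGP6.54, had 6.91, 14.7 and 8.94 CPM in deprived heads and 10.4, 7.40 and 16.0 CPM in replete heads. Deprived replicate 2 and replete replicate 3 were high and the groups overlapped. Its log2 fold change (deprived over replete) was -0.14, with a 95% interval of -0.91 to 0.62. In a bulk sample, fewer cells of a type and less RNA per cell cannot be told apart.

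Ir25a, the most widely used Ir co-receptor, had 4.50, 7.59 and 7.02 CPM in deprived heads and 5.77, 4.74 and 8.0 CPM in replete heads, a log2 fold change of 0.05 (95% interval -0.57 to 0.66). Ir76b, which serves taste and amine detection, had 2.14, 5.07 and 4.43 CPM in deprived heads and 3.23, 2.94 and 3.94 CPM in replete heads. For both genes the same libraries, deprived replicate 2 and replete replicate 3, were the highest of their groups. The interval of Ir76b ran from -0.57 to 0.98 around a log2 fold change of 0.21.

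Ir93a, needed for temperature and humidity sensing, had 1.71, 0.685 and 1.75 CPM in deprived heads and 2.11, 0.847 and 2.95 CPM in replete heads, with a log2 fold change of -0.50 (95% interval -1.70 to 0.70). Ir8a, needed for sensing acids, had 0.612, 0.868 and 0.836 CPM in deprived heads and 1.36, 0.113 and 0.738 CPM in replete heads, with a log2 fold change of 0.07 (95% interval -1.52 to 1.66). The groups overlapped for both genes. The intervals of these weaker co-receptors include changes beyond 2-fold in both directions for Ir8a and a fall beyond 2-fold for Ir93a.

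Orco, a single gene, varied more from library to library than the sum of the antennal tuning receptors did. All 8 olfactory markers, which include Orco, were highest in deprived replicate 2 and in replete replicate 3 within their groups, as were 4 of the 10 detected other chemosensory genes that are not among the 8. Of the 55 detected receptor genes, 9 (16.4%) had that pattern, against 13.0% of all detected genes. It was seen in 3 of 24 Or genes, 6 of 21 Ir genes and 0 of 10 Gr genes. Between the lowest and the highest of the 6 libraries, Orco differed by 2.32-fold and the summed markers by 1.54-fold. The summed antennal tuning receptors differed by 1.37-fold and the summed nested receptor genes by 1.24-fold. A sum evens out the scatter of its members. Single tuning receptors lay on both sides of Orco, such as Or67d at 10.1-fold and Or59b at 1.75-fold. The antennal sum was 20.9, 21.5 and 21.6 CPM in deprived heads and 20.3, 15.9 and 21.7 CPM in replete heads, with replete replicate 2 apart at the low end.

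**Figure D4:**
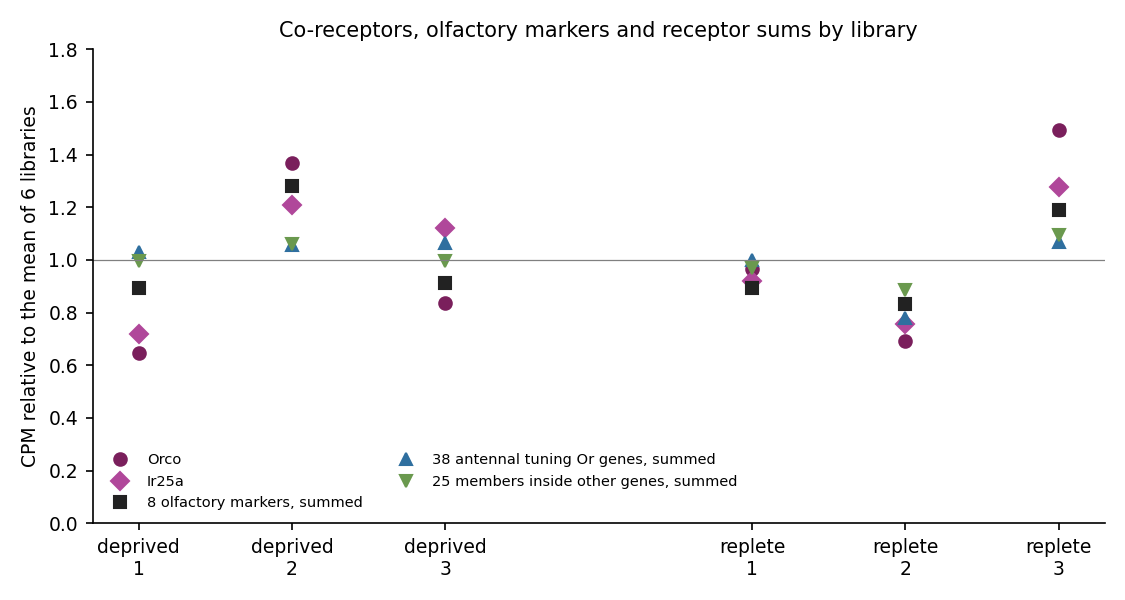
Level in each library relative to the mean of the 6 libraries, for Orco, Ir25a and the summed CPM of 8 olfactory markers, 38 antennal tuning Or genes and 25 receptor genes nested in other genes. The 3 deprived libraries are on the left and the 3 replete libraries on the right. Of the series shown, the single gene Orco spans the widest range, 2.32-fold, and the sum of the nested genes the narrowest, 1.24-fold. Sums even out the scatter of their members, so they do not compare directly with single genes. All 3 sums are lowest in replete replicate 2.

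Among receptors of antennal neurons, 14 of 38 Or genes were detected and none passed the test between diets, which called 0.33% of all tested genes. The nested Or59b, a receptor for short acetate esters, had 2.41, 4.02 and 2.51 CPM in deprived heads and 4.22, 3.39 and 2.52 CPM in replete heads. Or43b is not nested, but 40.7% of its exon bases are shared with Cul1. It had 3.11, 1.51 and 3.51 CPM in deprived heads and 2.73, 1.30 and 2.34 CPM in replete heads. In both cases the groups overlapped. The smallest p of this list belonged to Or85f, whose log2 fold change was 0.92 (95% interval -0.43 to 2.27). Or85f had 1.14, 1.01 and 0.961 CPM in deprived heads and 0.992, 0.339 and 0.308 CPM in replete heads. Or35a, a receptor of coeloconic hairs, had a log2 fold change of -1.01 (95% interval -3.00 to 0.97) and Or13a one of -0.69 (95% interval -2.10 to 0.72).

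Of 7 maxillary palp receptors, 3 were detected: Or71a, Or59c and Or85e. Or71a, which lies in the centrosome gene Plp on the same strand and serves detection of a phenolic compound of plants, had 4.15, 3.88 and 3.80 CPM in deprived heads and 4.59, 3.39 and 4.43 CPM in replete heads. Its values overlapped fully and its log2 fold change was -0.07 (95% interval -0.67 to 0.53). Or59c had a log2 fold change of -0.30 (95% interval -1.37 to 0.77).

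Of 13 receptors listed as larval, 6 were detected in these adult heads. Of the 6, Or45a, Or1a, Or94a and Or94b are nested, and Or63a and Or85c are not. Or85c had 1.22, 1.01 and 0.752 CPM in deprived heads and 0.496, 0.226 and 0.800 CPM in replete heads, the highest log2 fold change of any tested receptor gene at 0.97 (95% interval -0.39 to 2.33). The lowest deprived library still lay below the highest replete one.

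Among 6 receptors of trichoid hairs, which respond to fly pheromones, Or67d, Or65b and Or65c were detected. Or67d, the receptor for the male pheromone cis-vaccenyl acetate, had 1.05, 0.274 and 1.25 CPM in deprived heads and 0.124, 0.960 and 0.492 CPM in replete heads. Its values scattered widely within both groups, and the 95% interval of its log2 fold change of 0.69 ran from -0.99 to 2.38. Or65b and Or65c had log2 fold changes of 0.71 and -0.28.

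Taste receptors were the least visible family. Of 22 bitter receptor genes 3 were detected, the nested Gr39a and Gr47a and the gene Gr66a, and of 9 sugar receptor genes only Gr43a. The sugar receptor genes Gr5a, Gr64b, Gr64c, Gr64d and Gr64e share 74.4% to 100% of their exon bases with another gene. For those, a lack of detection does not tell whether the gene is silent. Gr47a, nested in SLO2 (chromosome arm 2R from 10362185 to 10363584) and present in bitter neurons, had 5.25, 5.07 and 2.51 CPM in deprived heads and 1.92, 2.26 and 3.02 CPM in replete heads. The deprived libraries 1 and 2 were above all replete ones and the deprived library 3 was below the highest replete one. Its log2 fold change was 0.83 (95% interval 0.03 to 1.63, unadjusted p = 0.0426), and its adjusted p in edgeR's quasi-likelihood test was 0.968 after Benjamini-Hochberg adjustment over all genes.

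Gr66a, the standard marker of bitter neurons, had 0.875, 0.731 and 0.501 CPM in deprived heads and 0.806, 0.226 and 0.246 CPM in replete heads, with a log2 fold change of 0.72 (95% interval -0.80 to 2.24). Gr43a, the fructose receptor that also acts inside the brain, had 0.481, 0.777 and 1.00 CPM in deprived heads and 0.434, 0.790 and 0.923 CPM in replete heads, with a log2 fold change of 0.07 (95% interval -1.23 to 1.37). Both genes had overlapping groups. Gr64f, the shared subunit of sugar receptors, was tested but not detected and had a log2 fold change of 0.26 (95% interval -1.73 to 2.26).

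The remaining detected Gr genes included Gr68a, known from pheromone taste in males, with 3.54, 2.97 and 2.01 CPM in deprived heads and 2.05, 1.41 and 2.52 CPM in replete heads. It is nested in loaf, and its log2 fold change was 0.51 (95% interval -0.34 to 1.36). Gr94a inside p53 and Gr77a inside CG13252 had log2 fold changes of -0.16 and -0.31, and Gr9a one of 0.23. Each of these 4 genes had overlapping groups.

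Selective Ir subunits of antennal neurons were seen more often, with 8 of 13 detected. Ir76a, an amine receptor, is not nested, but 14.1% of its exon bases are shared with CG14102. It had 14.3, 13.0 and 12.5 CPM in deprived heads and 14.3, 11.3 and 11.3 CPM in replete heads. It varied little over the libraries, and its log2 fold change was 0.11 (95% interval -0.27 to 0.49). Ir75a, an acid receptor subunit, had a log2 fold change of 0.57 (95% interval -0.60 to 1.74). Ir64a, another acid receptor subunit, had 0.262, 0.366 and 0.919 CPM in deprived heads and 1.12, 1.13 and 0.800 CPM in replete heads, with a log2 fold change of -0.96 (95% interval -2.34 to 0.42).

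The 4 temperature and humidity receptor genes Ir21a, Ir40a, Ir68a and Ir93a were all detected. Ir40a, which serves the sensing of dry air, had 0.394, 1.33 and 1.04 CPM in deprived heads and 0.434, 0.226 and 1.35 CPM in replete heads. Ir68a, which serves the sensing of moist air, had 1.75, 1.78 and 3.09 CPM in deprived heads and 1.43, 1.81 and 2.46 CPM in replete heads. The groups overlapped for both, with log2 fold changes of 0.46 (95% interval -1.13 to 2.05) and 0.22 (95% interval -0.69 to 1.13).

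The other 49 Ir genes gave 9 detected members, and each of the 9 is nested in another gene. Ir47a had 12.4, 14.8 and 10.1 CPM in deprived heads and 8.50, 12.1 and 7.08 CPM in replete heads, with a log2 fold change of 0.43 (95% interval -0.08 to 0.94). Ir85a had 6.17, 8.41 and 5.97 CPM in deprived heads and 4.71, 5.36 and 11.1 CPM in replete heads, where replete replicate 3 stood above the rest. Pif1A, a host gene of Ir85a on the other strand, was highest in the same library at 9.29 CPM. Per kilobase, Ir85a stood at 3.25 CPM, above Pif1A at 0.610 CPM and Pif1B, which also spans it, at 0.00445 CPM. Ir60a, nested in nord, had the lowest log2 fold change of any tested receptor gene at -1.27 (95% interval -2.88 to 0.35), with 0.569, 0.457 and 0.251 CPM in deprived heads and 0.496, 0.452 and 2.15 CPM in replete heads.

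Over the whole set, 51 receptor genes passed the filter on low counts and were tested: 22 Or, 9 Gr and 20 Ir genes. None was called at an adjusted p under 0.05 in edgeR's quasi-likelihood test, against 36 of the 10896 genes tested (0.33%), of which 32 were higher (0.294%) and 4 lower (0.0367%) in deprived heads. DESeq2 and limma-voom also called 0 receptor genes, beside 79 of the 14562 genes in the DESeq2 fit and 33 of 10896 in limma-voom. At an unadjusted p under 0.05, Gr47a alone was higher and no receptor gene was lower, while 5.13% of all tested genes passed, 2.72% higher and 2.41% lower. DESeq2, run without the filter on 148 receptor genes, gave 3 at that level (Gr28b, Gr47a and Or69a). Gr28b and Or69a are not among the 51, and the share over all genes in DESeq2 is not given here. With limma-voom, run on 51 receptor genes, the number was 0, and its share over all genes is not given here either. Without those shares, neither number tells whether receptor genes differ from other genes. Not a single tested receptor gene had groups that did not overlap, against 10.9% of all tested genes, 5.86% higher and 5.02% lower.

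Among the 51, 30 log2 fold changes were positive and 21 negative. The medians were 0.07 for Or, 0.23 for Gr and 0.04 for Ir genes, beside -0.01 over all tested genes. Outside the test, Gr28b had 0.875, 1.28 and 0.418 CPM in deprived heads and 0, 0.339 and 0.246 CPM in replete heads, and Ir47b 0.437, 0.914 and 0.794 CPM in deprived heads and 0.062, 0.339 and 0.308 CPM in replete heads. These 2 were the only detected receptor genes whose groups did not overlap, and both reached the detection threshold through the deeper deprived libraries alone.

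How large a change the intervals allow differed by gene. For 14 of the 51 genes the 95% interval lay within a 2-fold change either way: 4 Or, 1 Gr and 9 Ir genes. Among them were Or45a, Orco, Gr39a, Ir62a, Ir76a and Ir25a. Of the 14, 10 lie inside another gene and 4 do not. For those 10, reads of the host cannot be told apart, so the interval may not bound the receptor transcript itself. For the other 37 of the 51 the interval reached a 2-fold change or more. A change of that size in at least 1 direction is not excluded for them. The median standard error of the log2 fold change was 0.54 for the receptor genes and 0.19 for all tested genes.

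**Figure D5:**
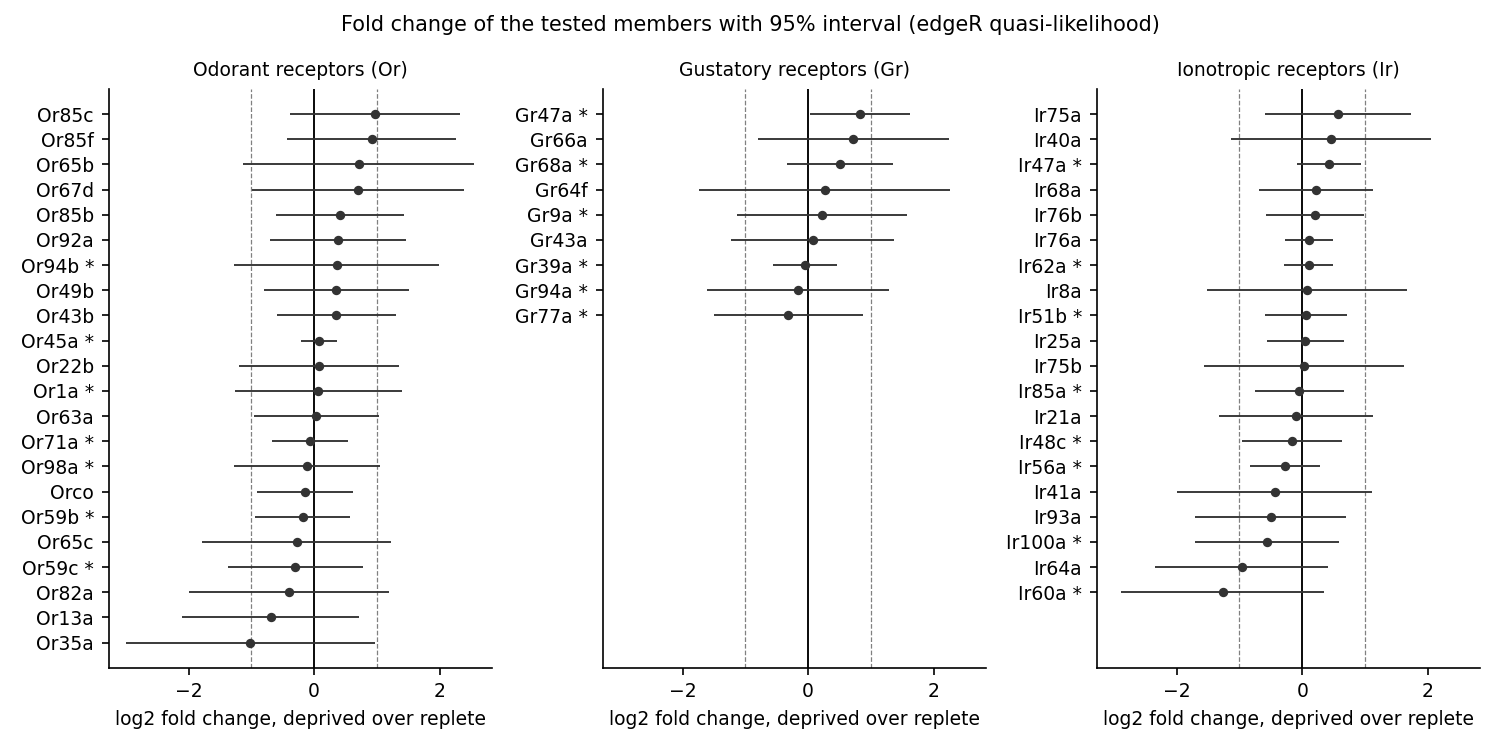
Log2 fold change (deprived over replete) of the 51 tested receptor genes with 95% intervals, by family; the solid line marks no change and the dashed lines a 2-fold change. An asterisk marks a gene that lies inside another gene. The interval of Gr47a alone lies clear of 0, and 37 intervals cross a dashed line.

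Summed by family, the Or genes came to 68.1, 74.0 and 65.8 CPM in deprived heads and 65.9, 58.9 and 75.3 CPM in replete heads, or 69.3 ± 4.20 against 66.7 ± 8.25 CPM (SD, n = 3 each). The Gr genes came to 37.1, 46.3 and 45.7 CPM in deprived heads and 44.8, 29.2 and 46.2 CPM in replete heads, or 43.0 ± 5.12 against 40.1 ± 9.43 CPM. The Ir genes came to 77.1, 85.2 and 80.2 CPM in deprived heads and 73.2, 70.2 and 89.4 CPM in replete heads, or 80.8 ± 4.10 against 77.6 ± 10.3 CPM. In each family the difference between the means was smaller than the spread within the replete group, whose lowest value was always replete replicate 2.

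Genes that work beside these receptors were not called either. In a list of 19 odorant binding proteins, transporters, channels and transcription factors of chemosensory tissue, 17 were detected and 17 were tested. None was called, against 0.33% of all tested genes, so a count of 0 is near the share over all genes. Of the log2 fold changes 11 were positive and 6 negative, with a median of 0.08. The odorant binding protein lush, which carries the pheromone sensed by Or67d neurons, had 6.17, 9.92 and 4.93 CPM in deprived heads and 5.09, 3.84 and 6.03 CPM in replete heads, a log2 fold change of 0.49 (95% interval -0.17 to 1.15). The transcription factor acj6, which controls choice of Or genes in olfactory neurons, had 25.3, 39.4 and 27.8 CPM in deprived heads and 21.8, 31.6 and 25.5 CPM in replete heads, a log2 fold change of 0.23 (95% interval -0.19 to 0.64). ATP8B, a lipid flippase of olfactory neurons, had a log2 fold change of 0.14 (95% interval -0.11 to 0.39). All 3 had overlapping groups.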

How the data were processed

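Per the labels, total RNA of whole heads was sequenced with standard Illumina libraries. Each library has its own deposited file of raw whole-number counts by gene. STAR 2.5.3a, Subread 1.6.2 with featureCounts, Trim Galore 0.4.2 and FastQC 0.11.5 were used per the submitters' processing notes. The sources used here do not give the genome build, the strand setting, the read layout or the handling of reads on several genes. Symbols were matched by gene identifier to Ensembl release 115 (BDGP6.54) for 17389 of 17509 identifiers, and 120 had none; exon length and gene position came from the same annotation. Sequencing depths and the floor of 3 counts use the sums of the deposited counts. The test and the CPM values use the sums over the tested genes, scaled by TMM.

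Genes were filtered with filterByExpr (minimum count 10, total 15), which kept 10896 of 14562 genes with a count. They were tested in edgeR 4.0.16 by quasi-likelihood F test (R 4.3.3, TMM scaling, robust, group only), with Benjamini-Hochberg adjustment over all tested genes at 0.05. The common biological coefficient of variation was 20.6%. Within groups, libraries differed beyond counting noise (chi-square per degree of freedom 19.2 to 46.5). Alternatives were other scalings and filters, DESeq2 1.42.0, limma-voom (limma 3.58.1), non-robust dispersion, a replicate block, thinning, removal of mitochondrial and ribosomal RNA genes, and fits that leave out each library in turn. The fit was tested on simulated data.

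The members and lists were chosen with earlier results of these data known. Named were the co-receptors, the carbon dioxide receptors, the 5 detected genes of each family with the highest CPM per kilobase, genes with an adjusted p or unadjusted p under 0.05, up to 3 genes with the smallest p of each role list, and 3 genes nearest the detection threshold on either side (ties in alphabetical order). Ir60a, Ir47b, Or69a, the other genes tied at the threshold and the nested or overlapping genes given outside that rule were named after their values were seen.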

Additional observations from a re-analysis of the deposited data

How the results depend on the processing

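No setting of the fit called a receptor gene. Over 18 alternatives the count stayed at 0, with 31 to 148 receptor genes tested and a smallest adjusted p of 0.524 (edgeR without replete replicate 2). Over all genes these alternatives called 20 to 79, with 10035 to 14562 genes tested. A count of 0 among the receptor genes is thus near the share over all genes. Whether equal replicate numbers pair the libraries is not stated in the labels. Deviations from the group means correlated at -0.06, 0.02 and 0.18 between same-numbered libraries. Between other-numbered libraries the correlations were -0.165 to 0.178, so these values do not settle pairing. The replicate block also called 0 receptor genes.

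The number detected, 55 in the main setting, depends on the threshold, on depth and on single libraries. With a minimum of 20 counts it was 32 (13 Or and 5 Gr genes). With counts halved, chosen after seeing the data because of the excess of even counts, it was 33 (13 Or and 5 Gr genes). With a minimum of 5 counts it was 72, of which 17 were Gr genes. After thinning to the smallest total it was 45 (19 Or, 8 Gr and 18 Ir genes). Leaving out each library in turn gave 45 to 53. The median log2 fold change of Gr genes was 0.53 with no filter, 0.50 in DESeq2, -0.053 with counts halved and 0.51 without deprived replicate 2 and replete replicate 3, also chosen after seeing the data. Leaving out each library in turn gave medians of 0.019 to 0.24 for Or, 0.17 to 0.53 for Gr and -0.12 to 0.25 for Ir genes. The cause was not tested.

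Of 39 named genes tested, 21 kept the sign of their fold change in every alternative run and 18 did not. Ir85a was at 0.044 in limma-voom and at 0.040 with the replicate block. Leaving out each library in turn, or deprived replicate 2 and replete replicate 3 together, gave log2 fold changes of -0.24 to 0.14 for Gr39a, -0.19 to 0.31 for Gr43a, -0.33 to 0.85 for Gr64f, -0.48 to 0.51 for Gr94a, -0.081 to 0.55 for Gr9a, -0.11 to 0.28 for Ir25a, -0.10 to 0.58 for Ir68a, -0.036 to 0.50 for Ir76b, -0.26 to 0.44 for Ir85a, -0.44 to 0.87 for Ir8a, -0.87 to 0.23 for Ir93a, -0.018 to 0.15 for Or45a, -0.63 to 0.0077 for Or59b, -0.86 to 0.086 for Or65c, -0.19 to 0.015 for Or71a, -0.11 to 0.93 for Or94b, -0.51 to 0.20 for Orco and -0.010 to 0.38 for acj6.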

Other observations

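A further 21 receptor genes reached 10 counts in a single library and so were not detected: 7 Gr, 5 Ir and 9 Or genes. Or98b had 14 counts in replete replicate 2 and 0 in the other 5 libraries. Or42b, a receptor for fruit esters, had 0, 2 and 5 counts in deprived heads and 0, 6 and 27 in replete heads. Or47b, a receptor for a fly pheromone, had 2, 5 and 2 counts in deprived heads and 2, 20 and 4 in replete heads. Gr36a had 6, 14 and 0 counts in deprived heads and 1, 0 and 0 in replete heads. These genes were named after their values were seen.

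Among the 148 receptor genes with any count, 7 had all deprived libraries above all replete ones on the CPM scale (4.73%) and 1, Gr32a, had all below (0.676%). The 7 were Gr28b, Ir47b, Or22a, Or22c, Or47a, Or67a and Or69a. Of the 7 only Gr28b and Ir47b were detected, and Gr32a was not. Or22c, for example, had 2, 1 and 2 counts in deprived heads and 0 in every replete library, so a separation there rests on very few counts. Over all 14562 genes with a count the shares were 5.49% above and 4.24% below.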
